A study of Mus musculus with 4 samples.

Results

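Cdh15+ Cadm1+ Spp1+ osteogenic cells are cells of bone marrow digests that carry RNA of 2 adhesion genes, Cdh15 and Cadm1, together with osteopontin (Spp1), without the high osteocalcin of mature osteoblasts or the high Dmp1 of osteocytes. Of 24084 cells that passed the filter in 4 libraries, 337 met the rule (1.40%, 1.25 to 1.56%, exact Clopper-Pearson interval). The filter kept cells with 200 to 6000 genes and at most 5% of their UMIs (unique molecular identifiers, each standing for 1 captured RNA molecule) from mitochondrial genes. The rule then asked for at least 1 UMI each of Cdh15 and Cadm1, at least 20 UMIs of Spp1, fewer than 100 of Bglap plus Bglap2, fewer than 8 of Adipoq and fewer than 20 of Dmp1 per 10000 UMIs of the cell, and no UMI of Ptprc (CD45). Measured values thus chose the cells. The levels of these 8 genes are therefore given as a description, and genes that go along with them differ between the populations compared here partly by choice.

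Td+ cells were sorted from endosteal bone marrow, the marrow that proteases release from metaphyseal bone once the central marrow is flushed out. The mice were male Col2-Cre Rosa26 lsl-tdTomato (Col2:Td) mice of strain B6SJL/F1, and all groups carried both alleles and no treatment. Ages were 1 month (2 mice), 1.5 months (3 mice), 3 months (3 mice) and 16 months (3 mice), with the mice of an age pooled into 1 library. Col2-Cre is not a driver of 1 cell type, since it marks chondrocytes, osteoblasts, osteocytes and marrow stroma, and the gate was the brightest 1% of cells where no clear Td peak was seen and the Td+ peak otherwise. There is no replicate of any age, so no test was made, and age, mice, sort and library cannot be told apart. Levels are CPM, the UMIs of a gene per 1000000 UMIs after adding up all cells of a population within a library, and values are given in the order 1, 1.5, 3 and 16 months unless stated. Poisson intervals (95%) of CPM and exact intervals of shares cover counting error only.

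Bone-forming cells descend from marrow stromal progenitors and lay down a matrix of type I collagen that is then mineralized, and some become embedded as osteocytes. Osteopontin and bone sialoprotein (Ibsp) are secreted phosphoproteins that bind mineral and integrins, and osteocalcin marks the mature osteoblast. M-cadherin, the product of Cdh15, is a calcium-dependent adhesion protein best known from muscle satellite cells, and the product of Cadm1 is an adhesion molecule of the immunoglobulin family. Mmp13 encodes a collagenase made by bone cells and by late growth plate chondrocytes.

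The account of these cells turns on genes that chose them (Cdh15 and Spp1) and on the collagenase gene Mmp13, whose level set them apart from mature osteoblasts. The 300 bases around the start of each are shown because RUNX factors are the main regulators of bone genes and the AP-1 site of the Mmp13 promoter is well known. Sequences are RefSeq promoters on GRCm38.p6, plus strand, 5′ to 3′, with 250 bases before and 50 after the start, and capitals mark matches to the RUNX core TGTGGT (its reverse complement ACCACA) or to AP-1, TGANTCA, on both strands. Cdh15 lies at chr8:122848124-122848423, Spp1 at chr5:104434861-104435160 and Mmp13 at chr9:7272264-7272563.
Cdh15: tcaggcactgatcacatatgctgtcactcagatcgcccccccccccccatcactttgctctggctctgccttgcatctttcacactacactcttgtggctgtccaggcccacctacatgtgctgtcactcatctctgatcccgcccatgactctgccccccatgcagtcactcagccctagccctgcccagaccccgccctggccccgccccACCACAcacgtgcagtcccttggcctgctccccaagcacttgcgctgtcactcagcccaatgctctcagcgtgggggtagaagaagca
Spp1: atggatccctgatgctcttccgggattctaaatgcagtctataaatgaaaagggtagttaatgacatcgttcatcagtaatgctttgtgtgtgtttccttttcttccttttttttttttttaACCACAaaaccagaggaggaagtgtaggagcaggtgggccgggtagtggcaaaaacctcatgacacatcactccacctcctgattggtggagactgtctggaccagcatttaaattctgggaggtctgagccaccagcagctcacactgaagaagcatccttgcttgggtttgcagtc
Mmp13: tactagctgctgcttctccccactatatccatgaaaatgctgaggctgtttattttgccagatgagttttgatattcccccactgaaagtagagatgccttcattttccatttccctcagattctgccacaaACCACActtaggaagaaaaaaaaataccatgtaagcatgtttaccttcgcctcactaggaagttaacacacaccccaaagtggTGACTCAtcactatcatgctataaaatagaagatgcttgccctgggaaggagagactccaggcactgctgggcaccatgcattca
Cdh15 held 1 RUNX core 38 bases before the start, Spp1 held 1 at 128 bases before it, and Mmp13 held 1 at 118 bases and an AP-1 match at 35 bases before it. Another RefSeq window of Spp1, at chr5:104435942-104436241, held no match. The Cdh15 window lies inside the gene as GENCODE M21 places it, from chr8:122847966, so its RefSeq start is a later one. The RUNX core stood in 5506 of 32851 RefSeq promoters (16.8%) and the AP-1 letters in 2565 (7.81%), so that matches are common and describe the letters only. No match was found in the windows of Serpine2, Ibsp and Limch1.

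Depth differed between libraries, with 32672631 to 108227184 UMIs over 4516 to 9229 barcodes, and the selected cells had a median of 13571, 12050, 7841 and 13504 UMIs. Neutrophils made up 52.5% of the filtered cells at 1 month. Libraries shared at most 61 barcodes in a pair, and no barcode was a selected cell in both libraries of a pair. Shared barcodes selected in only 1 of the libraries were not counted. Of the selected cells, 10 carried much RNA of another lineage (1, 4, 3 and 2 in the 4 libraries), by S100a8 plus S100a9 over 200, Hba-a1 plus Hbb-bs or Col2a1 over 100, or Acp5 over 5 per 10000 UMIs. Reporter RNA (tomato) stood at 3525, 3725, 3838 and 5486 CPM in the selected cells.

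The selected cells numbered 71, 88, 51 and 127. They made up 0.855% (0.668 to 1.08%) of filtered cells at 1 month, 1.61% (1.30 to 1.98%) at 1.5 months, 1.22% (0.910 to 1.60%) at 3 months and 2.07% (1.73 to 2.45%) at 16 months. Among the selected cells, osteoblasts and osteocytes together, they were 19.6%, 11.8%, 8.44% and 22.3%. The order of the libraries thus depended on the denominator, with the 1 month library lowest by the first share and the 3 month library lowest by the second. Of all Spp1+ cells within the same limits, 15.3%, 13.1%, 11.2% and 10.9% had both adhesion genes. Shares after thinning each cell to 3000 UMIs were 0.217%, 0.293%, 0.465% and 0.427%, on 18, 16, 18 and 24 cells. Each share fell, so the shares depended on depth. The 16 month library was no longer first, but counts this small do not settle the order of 3 and 16 months. With a mitochondrial limit of 10% in place of 5%, the share at 16 months was 3.84% (314 cells), and those of the other libraries were 0.858%, 1.63% and 1.21%. The rule often rested on a single molecule. Cdh15 was seen as exactly 1 UMI in 29 of 71, 46 of 88, 27 of 51 and 43 of 127 cells, and Cadm1 in 19, 28, 18 and 38.

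**Figure D1:**
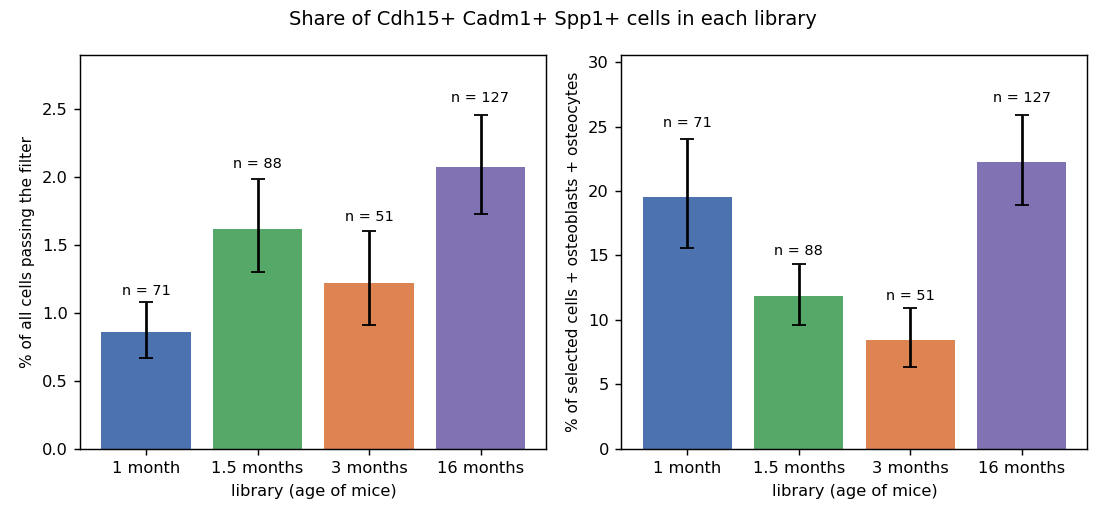
Share of Cdh15+ Cadm1+ Spp1+ cells in each library, in percent of all cells passing the filter (left) and in percent of these cells plus mature osteoblasts plus osteocytes (right). Bars start at 0, error bars are exact 95% Clopper-Pearson intervals, and n is the number of selected cells. The 16 month bar is the highest in both panels (2.07% and 22.3%), while the 1 month bar is the lowest on the left (0.855%) and the 3 month bar the lowest on the right (8.44%).

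For comparison, 3 other populations were drawn from the same libraries. Spp1+ cells without Cdh15 and Cadm1 met every other limit and had no UMI of either adhesion gene (262, 392, 286 and 824 cells). Mature osteoblasts had at least 100 UMIs of Bglap plus Bglap2 per 10000 and Dmp1 below 20 (257, 544, 482 and 391 cells). Osteocytes had at least 20 UMIs of Dmp1 per 10000 (35, 112, 71 and 52 cells). All had Adipoq below 8 and no Ptprc. Adipoq cells, with at least 8 UMIs per 10000, stand for the adipogenic marrow stroma, and neutrophils, with Ptprc and with S100a8 plus S100a9 of at least 50, show the level that free RNA can give.

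Cdh15 (chr8:122847966-122867397, plus strand, GENCODE M21 on GRCm38) was low where it was seen. In the selected cells its summed level was 175, 148, 199 and 186 CPM. In mature osteoblasts, which were not chosen by it, Cdh15 stood at 86.7, 60.5, 62.4 and 106 CPM, and in osteocytes at 25.6, 62.4, 95.8 and 156 CPM. Adipoq cells held 2.30 to 3.43 CPM and neutrophils 2.56 to 8.12 CPM, below the osteoblast values in every library. The part of free RNA in the osteoblast values was not tested. At an equal 3000 UMIs per cell, 20.2%, 14.2%, 12.5% and 21.9% of osteoblasts had a UMI of Cdh15, against 4 of 400, 0 of 18, 0 of 333 and 3 of 293 neutrophils. The counts of 0 allow a share of up to about 16.7% at 1.5 months, where neutrophils were few, and about 0.901% at 3 months. These limits are 3 divided by the number of cells, an approximation and not an exact interval.

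Cadm1 (chr9:47530173-47857637, plus strand) was also carried by osteoblasts and osteocytes, which were not chosen by it. Its level in the selected cells was 264, 232, 307 and 249.9 CPM. Mature osteoblasts had 282, 254, 323 and 275 CPM, slightly above the selected cells in every library. Osteocytes had 193, 273, 350.5 and 279 CPM, while Adipoq cells had 9.27 to 26.3 CPM. Osteoblasts and osteocytes thus held more Cadm1 than Adipoq cells in every library.

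Spp1 (chr5:104435118-104441050, plus strand) reached 28287, 41435, 58966 and 71783 CPM in the selected cells, where it was selected. Single cells ranged from the limit up to 1377 UMIs per 10000 at 1 month and 2602 at 16 months, with medians of 147, 287, 524 and 457. The lower tail at 1 month was long, with 10% of cells under 29.7 per 10000. Osteocytes, which no limit on Spp1 chose, had 32199, 23847, 42168 and 92884 CPM, and mature osteoblasts 9272, 4789.8, 4695 and 6030.1 CPM. Spp1 was thus lower in mature osteoblasts than in osteocytes in all 4 libraries.

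Of the other 2 marker genes proposed for these cells, Mmp9 did not hold. Col25a1 was higher than in mature osteoblasts and in Spp1+ cells without Cdh15 and Cadm1, but not than in osteocytes in every library. Col25a1 (chr3:130131501-130599877, plus strand), which encodes a transmembrane collagen, stood at 35.6, 39.8, 119 and 91.3 CPM, in 22, 25, 26 and 72 cells. Mature osteoblasts had 14.5, 13.9, 19.3 and 27.8 CPM, 2.45- to 6.16-fold less, a call that was narrowly lost with ratios centred on the median gene. Osteocytes had 33.5, 38.7, 78.5 and 147 CPM, on either side of the selected cells. At 3000 UMIs per cell, 11.3%, 9.09%, 31.4% and 20.5% of selected cells had a UMI of Col25a1, against 2 of 400, 0 of 18, 0 of 333 and 1 of 293 neutrophils, with the same limits for a count of 0.

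Mmp9 (chr2:164940780-164955850, plus strand), a gelatinase of osteoclasts and neutrophils, stood at 139, 36.2, 66.9 and 1.59 CPM in the selected cells. These were 129, 41, 32 and 3 UMIs in 25, 11, 6 and 3 cells, and 1 cell held 86 of the 129 at 1 month, 17 of the 41 at 1.5 months and 26 of the 32 at 3 months. The median cell had no Mmp9 in any library. Spp1+ cells without Cdh15 and Cadm1 had more Mmp9 in 3 of 4 libraries (41.0, 151, 253 and 9.73 CPM), and neutrophils had 174, 191, 227 and 737 CPM. Without the cell with most Mmp9, the selected cells had 5.05, 171, 1.89 and 7.69 UMIs of Mmp9 per 1000 UMIs of S100a8 plus S100a9, and neutrophils 1.51, 1.10, 0.971 and 2.91. The source of this Mmp9 was not tested. The trabecular position in the name given to these cells was not measured in these data and is not used here.

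Genes of the osteoblast lineage that the rule did not use were present in all 4 libraries. Runx2, the transcription factor that starts bone formation, stood at 126, 174, 272 and 382 CPM, above mature osteoblasts (79.9, 86.3, 107 and 172 CPM) in each library. Sp7 (osterix), which acts after Runx2, stood at 63.7, 118, 105 and 56.8 CPM, on both sides of the osteoblast values of 93.5, 118, 93.8 and 83.8 CPM. Alkaline phosphatase (Alpl), which frees phosphate for mineral, stood at 722, 885, 594 and 358 CPM and in osteoblasts at 595, 554, 671 and 244 CPM. Neutrophils had 8.12 to 39.5 CPM of Runx2, 2.88 to 12.2 of Sp7 and 17.2 to 62.4 of Alpl. The cells thus carried genes of the osteoblast lineage, above neutrophils. Adipoq cells were not compared for these genes, so they do not by themselves set the cells apart from marrow stroma.

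**Figure D2:**
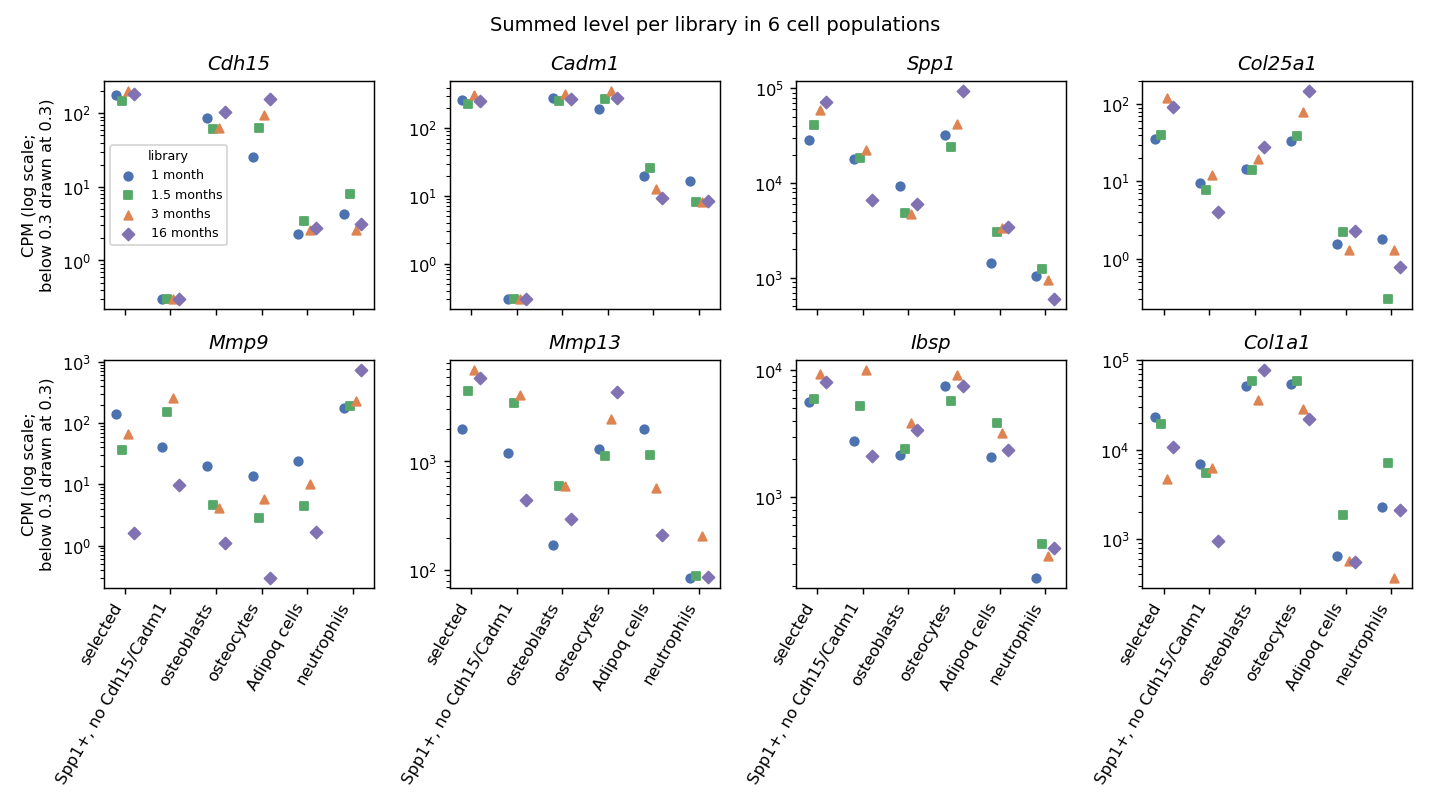
Summed level (CPM, log axis) of 8 genes in 6 populations, with 1 point per library and no error bars. Cdh15, Cadm1 and Spp1 were used to choose the selected cells, and values under 0.3 CPM, among them the Cdh15 and Cadm1 of cells chosen for having none, are drawn at 0.3. Mmp13 lies between 1978 and 6905 CPM in the selected cells and between 172 and 593 CPM in mature osteoblasts, while Mmp9 is highest in neutrophils at 16 months (737 CPM).

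Set against mature osteoblasts, 144 of 3448 genes tested were at least 2-fold higher in all 4 libraries (4.18%) and 30 were at least 2-fold lower (0.87%). A gene was tested if it had at least 50 CPM in 1 of the populations in at least 1 library and was not in the rule. Most genes were somewhat higher, since the median ratio on the log2 scale was 0.30, 0.45, 0.44 and 0.39. Osteocalcin RNA (Bglap), a large part of osteoblast UMIs at 67868 to 96089 CPM, moves with this shift, and its part in it was not tested. With ratios centred on that median the counts were 72 higher and 59 lower. Without the 1 month library they were 219 and 46.

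Genes were ranked by their ratio in the library where it was smallest, and Rapsn, Limch1, Serpine2, Ace and Mmp13 came first among the higher ones. Of 15 proteases and inhibitors tested, Mmp13 and Serpine2 were called higher and none lower, and the list had a median log2 ratio of 0.38 against 0.40 over all genes tested. Mmp13 (chr9:7272514-7283331, plus strand) stood at 1978, 4450.4, 6905 and 5853 CPM in the selected cells and at 172, 593, 593 and 296 CPM in mature osteoblasts, 11.5-, 7.51-, 11.6- and 19.8-fold higher. All 4 values of the selected cells lay above all 4 of the osteoblasts. The highest cell had 447 UMIs of Mmp13 per 10000, and medians were 6.29, 39.9, 58.3 and 45.4, with 54 of 71, 82 of 88, 50 of 51 and 120 of 127 cells holding a UMI. Mmp13 was not particular to these cells, since Adipoq cells at 1 month had 1999 CPM, and neutrophils had 86.0 to 205 CPM. Of 16 proteases and inhibitors tested against osteocytes, none was called higher, Mmp13 included. A list of 7 late chondrocyte genes that holds Mmp13 and Ibsp summed to 8181.5, 12018, 17063 and 14398 CPM in the selected cells. It summed to 9576, 8085, 12073 and 12181 CPM in osteocytes. In Spp1+ cells with Cdh15 but no Cadm1 it summed to 10263, 12161, 26994 and 15006 CPM.

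Serpine2, an inhibitor of serine proteases such as thrombin, stood at 3804, 6469.7, 9546 and 5852 CPM against 390.1, 552, 642 and 589 CPM in osteoblasts, 9.75- to 14.9-fold higher. Adipoq cells had 2955, 5457, 6495 and 4760.0 CPM of Serpine2, close to the selected cells. Tnc, which encodes the matrix protein tenascin C, stood at 618, 1348, 1973.5 and 2512 CPM against 108, 229, 244 and 280.1 CPM in osteoblasts. Olfml2b and Olfml2a, which encode olfactomedin domain proteins, were also among the 10 genes ranked first. Olfml2b stood at 228, 514, 531 and 557 CPM against 36.3, 88.0, 50.5 and 44.8 CPM.

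Of 7 tested genes on the list of stromal genes shared with lineage-committed cells of the marrow, 4 were called higher than in osteoblasts (Limch1, Kcnk2, Hey1 and Vcam1) and none lower, with a median log2 ratio of 1.47 against 0.40 over all genes tested. Limch1, whose product binds actin and myosin, stood at 292, 263, 577 and 545 CPM against 27.7, 20.5, 42.6 and 46.7 CPM in osteoblasts. Kcnk2, a potassium channel, was 2.44- to 7.45-fold higher, and Hey1, a Notch target, 2.07- to 7.10-fold. With ratios centred on the median gene the call of Limch1 stayed, and those of Kcnk2, Hey1 and Vcam1 were lost at log2 ratios of 0.90, 0.75 and 0.88. The adipogenic stroma list stood at a median log2 ratio of 1.55, with 2 of 11 called (Cebpa and Igfbp4) and 0 after centring. Its genes summed to 1398, 2132, 5208 and 8563 CPM in the selected cells, 549, 1416, 792 and 1918 CPM in osteoblasts and 3100, 3912, 4795.5 and 8557 CPM in neutrophils, and the part of free stromal RNA in these ratios was not tested. A UMI of both Limch1 and Kcnk2 was found in 24 of 71 selected cells (33.8%), 34 of 88 (38.6%), 26 of 51 (51.0%) and 51 of 127 (40.2%). The selected cells and Limch1+ Kcnk2+ cells, 917 in all libraries, are therefore overlapping sets.

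Of the other 10 highest, Rapsn, the gene of the synaptic scaffold protein rapsyn, stood at 15.1, 26.5, 85.7 and 26.5 CPM against 1.17 to 4.78 CPM, in 7, 22, 19 and 31 cells. Ace, angiotensin converting enzyme, stood at 19.4, 13.3, 33.4 and 58.4 CPM against 1.51 to 3.33 CPM. Angpt4, a ligand of the receptor TIE2, was 7.04- to 12.6-fold higher, and Ggt5, a transferase of glutathione metabolism, 6.49- to 17.1-fold. These 4 genes were low in the osteoblasts, Angpt4 less so (3.52, 10.7, 19.8 and 27.3 CPM), and their ratios are less precise than those of Mmp13 and Serpine2. The ratio of Olfml2a at 1 month is a bound, since osteoblasts had fewer than 3 UMIs of it there (0.469 CPM).

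**Figure D3:**
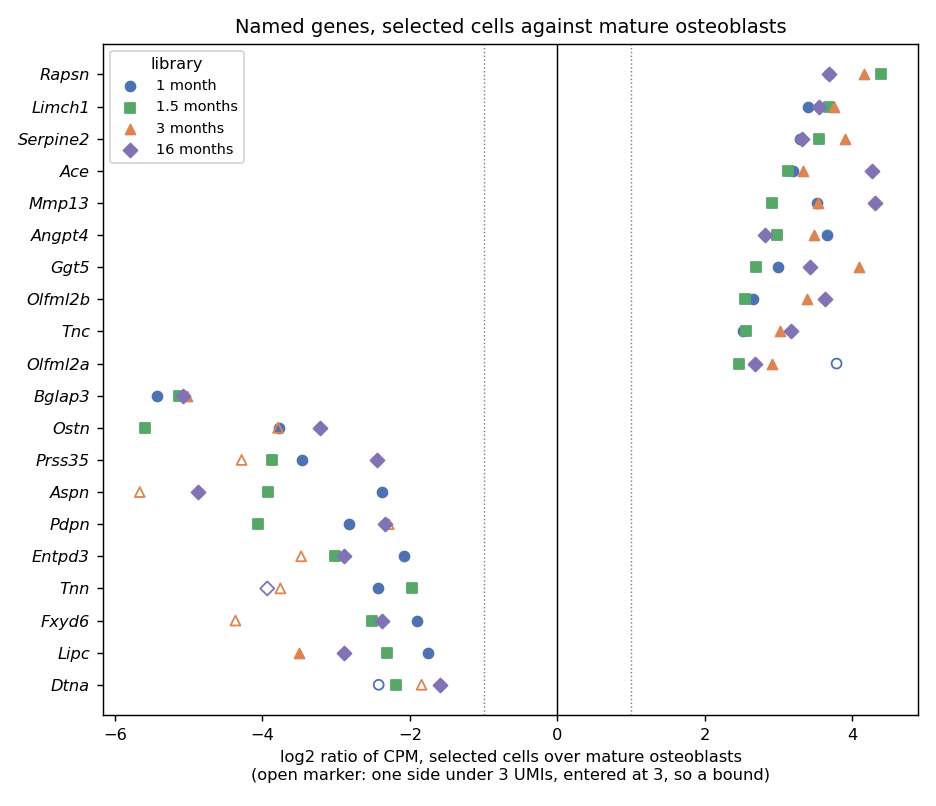
Log2 ratio of CPM, selected cells over mature osteoblasts, for 20 genes, the 10 in each direction with the largest ratio in the library where it was smallest, with 1 marker per library. Open markers are bounds, because 1 side had fewer than 3 UMIs and was entered at 3, and dotted lines mark 2-fold. The 4 libraries lie on the same side for each gene, from 3.69 for Rapsn at its smallest down to -5.03 for Bglap3 at its smallest.

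Genes lower than in mature osteoblasts included Aspn, Ostn and Tnn of the late progenitor list. Aspn, which encodes the collagen-binding asporin, stood at 34.5, 34.5, 4.18 and 2.65 CPM against 179, 523, 318 and 77.5 CPM. Ostn (osteocrin) stood at 3.24, 2.65, 0 and 1.59 CPM against 44.1, 128, 86.5 and 14.8 CPM, and Tnn (tenascin N) was lower as well. Of the 5 genes of the late progenitor list tested, 3 were called lower and none higher, with a median log2 ratio of -3.10 against 0.40 over all genes tested. All 10 genes of the list summed to 377, 662, 560.3 and 780.0 CPM against 679, 1948, 1190.1 and 356 CPM in osteoblasts, so the sum was higher in the selected cells at 16 months. Pdpn, podoplanin of early osteocytes, stood at 0 to 5.31 CPM against 23.0 to 88.0 CPM. Bglap3 came first by the ratio in the library where it was smallest (31.3, 114, 79.4 and 2.65 CPM against 1353, 3984, 2591 and 89.3 CPM), but it is a near copy of Bglap and Bglap2, on which the cells were chosen, and reads may be split among the 3 genes. The remaining named genes, Prss35, Entpd3, Fxyd6, Lipc and Dtna, were lower in every library, the smallest difference being that of Dtna at 16 months, 3.00-fold.

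Bone matrix genes moved in both directions. Of 27 tested, 3 were called higher (Col25a1, Ibsp and Tnc) and 6 lower (Col1a1, Col1a2, Col3a1, Col5a2, Col11a1 and Dcn), with a median log2 ratio of -0.42 against 0.40 over all genes. Ibsp stood at 5567, 5886, 9366 and 8069 CPM against 2138, 2385, 3828 and 3370.5 CPM in osteoblasts, 2.39- to 2.60-fold higher in the 4 libraries. Col1a1 stood at 23439, 19291, 4631 and 10581 CPM against 50991, 58889, 36301 and 77780.0 CPM, 2.18-, 3.05-, 7.84- and 7.35-fold lower. With ratios centred on the median gene, 1 was called higher and 8 lower, and the call of Ibsp was lost at a log2 ratio of 0.85, while Tnc and the 6 lower genes kept theirs. The difference in Col1a1 was larger at 3 and 16 months than at 1 and 1.5 months.

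Of 13 mineralization genes tested, 2 were called higher and none lower, where 4.18% and 0.87% of all genes were called, and their median log2 ratio of 0.06 lay below the 0.40 of all genes. With ratios centred on the median gene the call of Ank was narrowly lost (0.98). Enpp1, which makes pyrophosphate, an inhibitor of mineral, stood at 29.1, 55.7, 77.3 and 173 CPM against 11.7, 14.5, 18.3 and 18.9 CPM. Ank, which exports it, stood at 41.0, 88.4, 73.2 and 128 CPM against 16.9, 24.6, 21.8 and 36.8 CPM. Smpd3, a sphingomyelinase needed for mineralization, was not called but lay below the osteoblast value in each library (235, 197, 94.1 and 119 CPM against 376, 339, 681 and 569 CPM).

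Of 8 genes of osteoclast coupling tested, 2 were called higher, Tnfsf11 and Csf1, and none lower, where 4.18% and 0.87% of all genes were called. Their median log2 ratio was 1.63 against 0.40 over all genes. Against Spp1+ cells without Cdh15 and Cadm1 the list went the other way, with a median of -1.85 against -0.03 over all genes. There, 5 of 13 were called lower (Il34, Cxcl12, Cxcl14, Tgfb2 and Igf1) and none higher. Against osteocytes 1 of 11 was called higher (Csf1) and 1 lower (Tnfrsf11b). Tnfsf11 (RANKL), the osteoclast differentiation factor, stood at 37.8, 118, 134 and 131 CPM against 4.22, 23.4, 9.78 and 9.40 CPM in osteoblasts, in 20, 45, 21 and 62 cells. Csf1, the macrophage growth factor, stood at 72.3, 111, 165 and 314 CPM against 15.5, 25.6, 28.9 and 55.7 CPM. Both calls stayed with ratios centred on the median gene. Both were at least as high in Adipoq cells at 1 and 1.5 months, where Tnfsf11 stood at 514 and 431 CPM. Wif1, a secreted Wnt inhibitor and the 1 gene called higher of 8 of the Wnt pathway (median log2 ratio 0.90), stood at 864, 847, 688 and 325 CPM against 150.3, 144, 97.8 and 83.1 CPM. Of 10 osteogenic transcription factors and 20 genes of the secretory machinery, none passed in either direction.

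Against osteocytes, 51 of 3616 genes were higher in all 4 libraries (1.41%) and 58 were lower (1.6%). The median log2 ratio was 0.21, 0.33, 0.24 and 0.15, and with ratios centred on it the counts were 28 and 77. Without the 1 month library 79 were higher, and without the 16 month library 120 were higher and 124 lower. The osteocyte populations were small, 35 cells at 1 month and 52 at 16 months.

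Osteocyte genes other than Dmp1 were lower than in osteocytes, partly by choice, since a limit on Dmp1 separates the 2 populations. Of 13 tested, 7 were called lower (Phex, Sost, Pdpn, Cd44, Ackr3, Fbln7 and Nt5e) and none higher, with a median log2 ratio of -2.40 against 0.25 over all genes. Phex, an endopeptidase of phosphate control, stood at 44.2, 35.3, 33.4 and 60.5 CPM against 916, 609, 507 and 396 CPM. Sost (sclerostin) had no UMI in any of the 337 cells, which allows up to 3.98, 3.26, 7.71 and 1.96 CPM, and stood at 114, 50.2, 30.6 and 48.9 CPM in osteocytes. Plpp1, a lipid phosphatase that came first by the ratio in the library where it was smallest, stood at 41.0, 38.9, 29.3 and 7.43 CPM against 1582, 1167, 751 and 126 CPM. Col24a1, Car12, Bglap3, Dock9, Ctsw and Bend5 were the other lower genes by the same rule. The selected cells were closer to osteocytes in Ibsp, within 1.36-fold in either direction, and in Wif1, within 1.27-fold. Against mature osteoblasts, 1 of 9 osteocyte genes tested was called lower (Pdpn), with a median log2 ratio of -0.07 against 0.40 over all genes. All 17 genes of the list summed to 1346.5, 1797, 1775 and 2093 CPM in the selected cells. In mature osteoblasts they summed to 1326, 1928, 1578 and 1672 CPM, on both sides of the selected cells.

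Fhl2, Col8a1 and several genes of cell division led the genes higher than in osteocytes. Of the stromal lists, 0 of 11 adipogenic genes and 1 of 7 lineage-committed genes (Vcam1) were called higher. Fhl2, a LIM protein and cofactor, stood at 65.8, 110, 188 and 192 CPM against 11.8, 23.7, 40.2 and 42.6 CPM, and Col8a1, a network collagen, was 3.60- to 8.44-fold higher. Fbn1 (fibrillin), Fgfr3 and Eva1a were also among the 10 ranked first. Of 8 cell cycle genes tested, 7 were called higher than in osteocytes (Mki67, Top2a, Ccnb2, Birc5, Cenpf, Tyms and Ube2c), with a median log2 ratio of 2.35 against 0.25 over all genes, and 5 were called higher than in osteoblasts, with a median of 1.81. Spc24 and Cenpa, of the kinetochore and centromere, were also among the leading 10. With ratios centred on the median gene 6 of the 7 calls against osteocytes stayed, and Cenpf was lost at 0.88. The calls of Mki67 and Ube2c against osteocytes were lost without the cells with the highest doublet scores, at log2 ratios of 0.25 and 0.67 in the library nearest to 0, and that of Mki67 also without cells holding RNA of other lineages, at 0.71.

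A few cells held most of this RNA. At a summed level of at least 10 UMIs per 10000 over 14 cell cycle genes lay 10 of 71 selected cells (14.1%, 6.97 to 24.4%), 9 of 88 (10.2%, 4.78 to 18.5%), 4 of 51 (7.84%, 2.18 to 18.9%) and 12 of 127 (9.45%, 4.98 to 15.9%). Osteoblasts over that level were 3.50%, 1.47%, 1.87% and 1.02%. Spp1+ cells without Cdh15 and Cadm1 over it were 3.05%, 4.85%, 3.85% and 4.13%. Against those cells none of 8 cell cycle genes was called, with a median log2 ratio of 1.10. The list summed to 760, 444, 399 and 700 CPM in the selected cells and to 673, 403, 408 and 243 CPM in Limch1+ Kcnk2+ cells. The selected cells over that level held 74.1%, 75.3%, 67.5% and 89.1% of the UMIs of the list in the selected cells. They were also deeper, with a median of 17496, 17680, 15036 and 21809 UMIs against 12588, 11402, 7347 and 12959 in the rest, and 0, 1, 3 and 1 of them were among the cells with the highest doublet scores. At 3 months they carried 30184 CPM of S100a8 against 577 in the rest, and at 1 month 11274 against 2957. The part of doublets and free neutrophil RNA in this was not tested.

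Against Spp1+ cells without Cdh15 and Cadm1, 46 of 3999 genes were higher in all 4 libraries (1.15%) and 132 were lower (3.3%), and without the 16 month library 200 were lower. The median log2 ratio was -0.05, -0.02, 0.04 and -0.14. The selected cells were deeper, with medians of 13571, 12050, 7841 and 13504 UMIs against 9823, 9442, 5382.5 and 8474. Depth therefore moved with the presence of the 2 adhesion genes, and its part in the calls was not tested. Col22a1, a collagen of tissue junctions, stood at 137, 105, 102 and 105 CPM against 7.48, 6.90, 4.45 and 1.74 CPM. Ifitm5 (BRIL), a membrane protein of osteoblasts, stood at 673, 315, 249 and 187 CPM against 25.6, 33.6, 27.3 and 3.63 CPM. The other leading genes were Cyfip2, Pcdh7, Insc, Cd59a, Fam78b, Mmp16, Slc36a2 and Col25a1, with Pcdh7 a protocadherin and Mmp16 a membrane-bound metalloproteinase.

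Some genes of cartilage and stroma were lower than in these comparison cells, which were mixed. Col2a1, the cartilage collagen, stood at 17627, 19938, 11880 and 58.4 CPM in them against 180.2, 4261, 1185 and 323 CPM in the selected cells. Chad (chondroadherin) stood at 48.6, 238, 259 and 2.12 CPM against 1865, 2005, 2344 and 85.0 CPM, and Cytl1, a cartilage cytokine, at 3.24, 12.4, 14.6 and 1.59 CPM against 97.2, 117, 736 and 147 CPM. Col2a1 was thus higher in the selected cells at 16 months, and so was the sum of 11 chondrocyte genes (678 against 457 CPM), which was lower in the other 3 libraries. Of 11 chondrocyte genes tested 4 were called lower (Acan, Sox9, Col9a2 and Hapln1), and of 12 adipogenic stroma genes 6 (Lepr, Cxcl12, Lpl, Apoe, Gas6 and Igfbp5). Cxcl12, the chemokine that holds blood stem cells in the marrow, stood at 311, 787, 1953 and 3258 CPM against 1149, 2778, 5462 and 22717 CPM. Apod, Sod3, Pcolce2, Lbp, Fxyd3, Anxa8 and the near copies Serpina1a and Serpina1b, between which reads may be split, were the other leading lower genes. Mmp13 and Ibsp differed little from these cells at 1.5 and 3 months (1.29- and 1.71-fold for Mmp13, 1.13-fold higher and 1.07-fold lower for Ibsp), and most at 16 months (13.3- and 3.81-fold higher).

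Within the selected cells, collagen and collagenase did not rise together. Over the cells of a library, and on the natural log of UMIs per 10000 plus 1, Pearson's r of Mmp13 with Col1a1 was -0.515 (71 cells), -0.394 (88), -0.156 (51) and -0.217 (127). Of 1294 genes seen in at least 50% of selected cells, Col1a1 went with Col1a2 most closely (r = 0.923 to 0.979), then with Sparc (0.793 to 0.950), Serpinf1, Serpinh1, the collagen chaperone, and Ifitm5. It ran against Tmsb4x, Fth1, Cxcl12 (-0.368 to -0.681), Limch1 (-0.365 to -0.763) and Tnc. Mmp13 went with Serpine2 (0.494 to 0.709), Itgb5 (0.449 to 0.517), Olfml2b (0.422 to 0.636) and Spp1 (0.417 to 0.654), and against Car3 and Dcn. These values describe cells that share a library, differ in depth and are expressed as parts of a whole, so that a cell full of collagen RNA has less room for the rest.

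**Figure D4:**
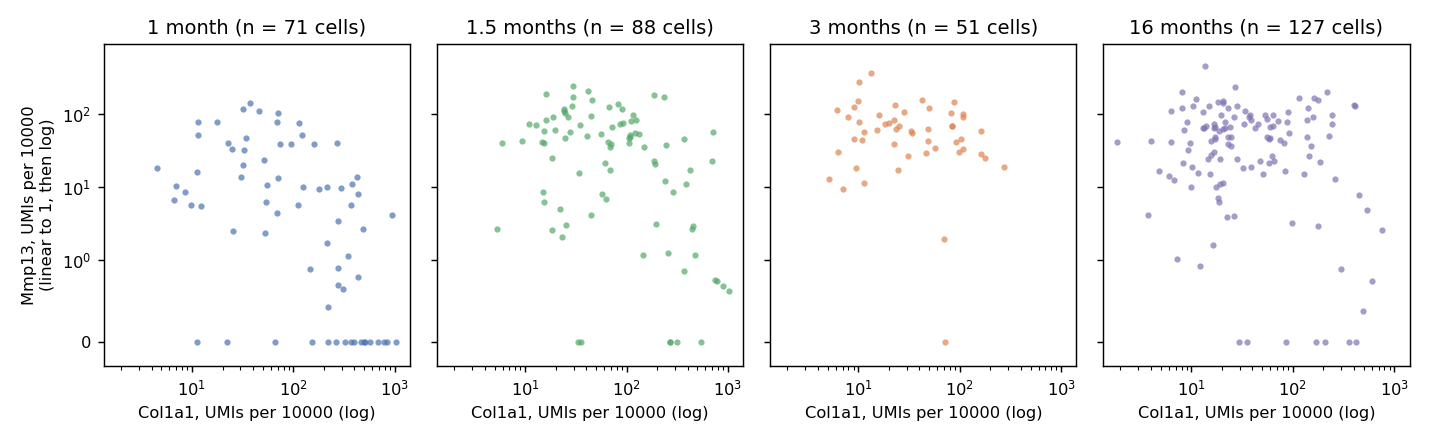
Mmp13 (vertical, UMIs per 10000 UMIs, linear up to 1 and log above) against Col1a1 (horizontal, log axis) in each selected cell, with 1 panel per library. At 1 month the cells with most Col1a1 have little or no Mmp13 (r = -0.515), and at 3 and 16 months the relation is weak (r = -0.156 and -0.217).

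The ends of this range were compared in each library. They differed in depth. Cells with the lowest and highest Col1a1 had medians of 10347 and 14685 UMIs at 1 month and 8193 and 14606 at 1.5 months. The medians were 7891 and 7016 UMIs at 3 months and 10981 and 16585 at 16 months, and the part of depth was not tested. At 1 month the 23 cells with the lowest Col1a1 had 2172 CPM of Col1a1, 4075 of Mmp13, 57409 of Spp1, 6942 of Serpine2 and 743 of Limch1. The 23 cells with the highest had 48368 CPM of Col1a1, 292 of Mmp13, 8249 of Spp1, 1203 of Serpine2 and 18.2 of Limch1. Smpd3 was at 0 and 413 CPM, and Ifitm5 at 65.2 and 1209 CPM. Ibsp differed less between these ends, at 4009.7 and 5289.5 CPM. At 1.5 months the 29 lowest and 29 highest cells had 1856 and 41689 CPM of Col1a1, 5504 and 2308 of Mmp13, 495 and 43.3 of Limch1 and 32.2 and 662 of Ifitm5. At 3 months the 17 lowest and 17 highest had 1003 and 11041 CPM of Col1a1, 8514.5 and 5181 of Mmp13 and 719.9 and 279 of Limch1.

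At 16 months the 42 lowest and 42 highest cells had 1131 and 22223 CPM of Col1a1 but almost the same Mmp13, 5783 and 5670.1 CPM, and Spp1 was higher in the latter (51036 and 81314 CPM). Limch1 again fell toward the collagen end, from 808 to 345 CPM, and Cxcl12 from 7227 to 1387 CPM. Cdh15 stood at 209 and 149 CPM at the lowest and highest ends at 1 month, at 148 and 129.7 CPM at 1.5 months, at 183 and 174 CPM at 3 months and at 156 and 199 CPM at 16 months.

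**Figure D5:**
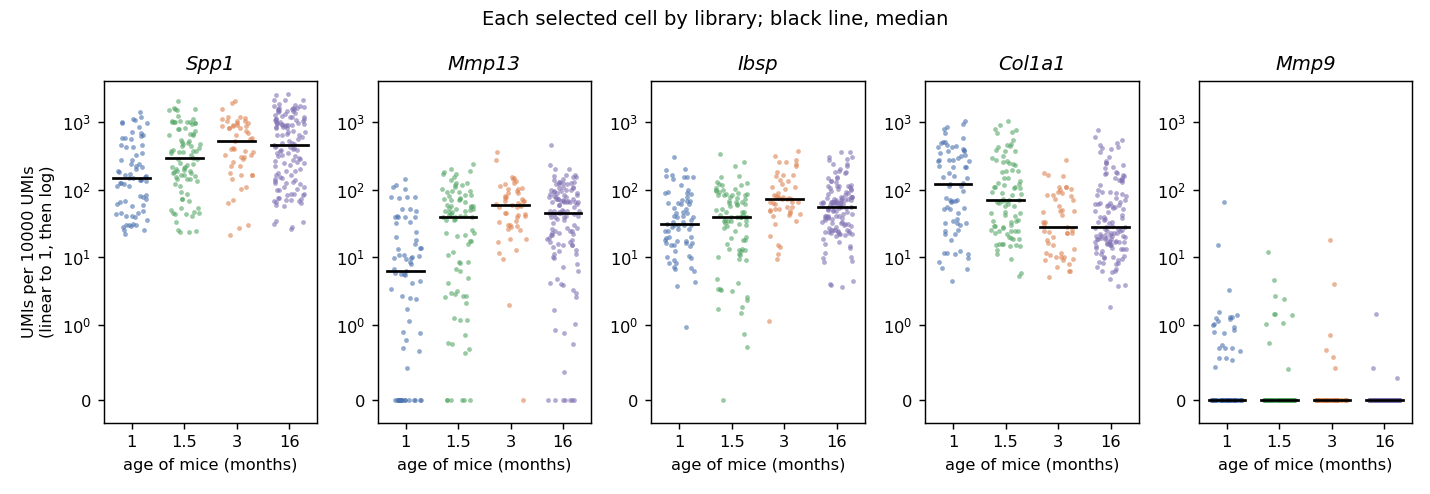
Level of 5 genes in each of the 337 selected cells by age of the mice (vertical axis UMIs per 10000 UMIs, linear up to 1 and log above), with black lines at the medians. Medians of Spp1 are 147, 287, 524 and 457, those of Mmp13 are 6.29, 39.9, 58.3 and 45.4, and those of Mmp9 are 0 in each library.

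Cells just inside and just outside each limit of the rule were few, so they are given by library. At the Spp1 limit, 24 selected cells with 20 to 40 UMIs per 10000 had 179, 1005, 464 and 411 CPM of Mmp13, and the 14 cells just below, with 10 to 20, had 133, 99.1, 248 and 73.0 CPM, lower in each library. At the osteocalcin limit, 59 selected cells with 50 to 100 UMIs of Bglap plus Bglap2 per 10000 had 809, 2515.5, 3297 and 4088 CPM of Mmp13 and 44111, 36297, 8912 and 18083 CPM of Col1a1. The 30 cells just outside, with 100 to 200, had 1775, 837, 873 and 526 CPM of Mmp13 and 37281, 40889, 11706 and 46080.0 CPM of Col1a1. Mmp13 was thus higher and Col1a1 lower inside that limit at 1.5, 3 and 16 months, and both ran the other way at 1 month. At the Dmp1 limit, 42 cells inside (10 to 20) had 1189, 6695, 7185 and 7805 CPM of Mmp13 and 18 outside (20 to 40) had 10411, 15385, 11855 and 6410.2 CPM, higher outside except at 16 months, which held 12 of the 18. At the Adipoq limit, 5 cells inside (4 to 8) and 11 outside (8 to 16) at 16 months had 2178 and 2037 CPM, and the other libraries held at most 2 cells on either side.

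Markers of other cell types were low in the selected cells with a few exceptions. Of 8 muscle satellite cell genes, 6 or 7 were at 0 UMIs in each library, Pax7, Myf5, Myod1 and Myog among them in all 4, although Cdh15 is best known from those cells. Of 8 osteoclast genes other than Mmp9, 4 were at 0 in each library, Dcstamp and Calcr always, and the summed level was 196 to 280.1 CPM against 224 to 315 CPM in osteoblasts. Most of it was Ctsk, at 159.7, 143, 179.8 and 189 CPM. Neutrophil genes summed to 15123, 206, 10233 and 186 CPM, and 86.0% of these UMIs at 3 months came from 1 cell. In osteoblasts of the same libraries they summed to 13431, 203, 2016 and 125 CPM. Chondrocyte genes summed to 680, 7506, 2003 and 678 CPM against 2249.8, 8534, 17003 and 2671 CPM in osteoblasts. Erythroid genes summed to 2932, 218, 345 and 2794 CPM, and 75.5% of those at 16 months came from 1 cell.

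At 16 months, 260 of 3347 genes in the selected cells were at least 2-fold above every other library (7.77%) and 180 at least 2-fold below (5.38%). Without the 3 month library, the shallowest, these were 478 and 301. The median log2 difference over all genes tested was -0.04 from 1 month, -0.15 from 1.5 months and -0.14 from 3 months. The 16 month table lists 31054 genes and the others 27999, from another set, and the largest differences on the lower side were of that kind. Atp5o had 0 UMIs over all filtered cells at 16 months and at least 10171 in each other library, Fdx1l 5, Srp54b 9 and Tonsl 61. Mia2 had 3915 UMIs at 16 months and at most 2 in each of the others. These 5 genes were not read as differences between the cells. Of the genes called, 72 of the higher (27.7%) and 64 of the lower (35.6%) were also called between the mature osteoblasts of the same libraries. There, 4.65% and 4.57% of 2494 genes tested were called, and the shared genes were 62.1% and 56.1% of those calls. Between the Adipoq cells of the same libraries, 95 of the higher (36.5%) and 74 of the lower (41.1%) were also called. The share of all genes called in Adipoq cells is not given here. Called in neither osteoblasts nor Adipoq cells were 136 of the higher and 91 of the lower genes.

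Genes of adipogenic stroma were among the higher ones at 16 months, 6 of 11 tested and none lower. Lepr, the leptin receptor, stood at 6.47, 15.9, 18.8 and 151 CPM, Lpl (lipoprotein lipase) at 18.3, 41.5, 46.0 and 236 CPM, and Kitl (stem cell factor) at 9.71, 30.9, 111 and 319.9 CPM. Apoe, Esm1 and Igfbp5 were the others. All 6 were higher still in Adipoq cells of that library (Lpl at 3198 CPM). Neutrophils of that library, which should lack them, held 117 CPM of Lepr, 316 of Lpl, 169.7 of Kitl and 143 of Esm1, so that free stromal RNA and expression by the selected cells cannot be told apart. Of 9 chondrocyte genes 5 were called lower (Acan, Col9a1, Col9a2, Matn3 and Hapln1), and Col9a3 and Chad were among the 8 lowest. Col9a3 was low in that whole library, with 2656 UMIs over all filtered cells against 33493, 243299 and 54143 in the others. Neutrophils held 1426, 8234, 1362 and 106 CPM of the chondrocyte list, above the selected cells at 1 and 1.5 months (680 and 7506 CPM), and the part of free cartilage RNA in these calls was not tested.

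The remaining genes that led the higher side were Lars2, Egr3, Sbno2, Icam1, AY036118, Ints6 and Bmp6. Lars2, a mitochondrial transfer RNA synthetase gene, stood at 9.71, 11.5, 2.09 and 705 CPM in the selected cells, but also at 8.91, 8.82, 9.98 and 469 CPM in osteoblasts, and at 739 CPM in neutrophils at 16 months. Egr3, an early response factor, stood at 162 CPM against at most 1.77 in the others. It was higher in that whole library, with 46.6 CPM in osteoblasts and 79.1 CPM in Adipoq cells. Over all filtered cells it had 5071 UMIs at 16 months against 17, 17 and 8 in the others. Fosb and Egr1 of the same class, listed as immediate early genes, were called as well, with Fosb at 639.8, 585, 985 and 2374 CPM. In all, 3 of the 12 genes of that list were called, where 7.77% of all genes were. The list summed at 16 months to 18188 CPM in the selected cells, 10440 in osteoblasts and 28058 in Spp1+ cells without Cdh15 and Cadm1. Bmp6, a bone morphogenetic protein, stood at 54.7 CPM against 0 to 0.884, with 329 CPM in Adipoq cells of the same library. Mmp9 was among the lower genes, at 1.59 CPM. Whether handling, mice or age moved these genes was not tested, and the median percent of mitochondrial UMIs in the selected cells was highest there, at 4.22%.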

How the data were processed

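Td+ cells from 4 libraries were measured by droplet single-cell RNA sequencing. Per the study's methods, the authors mapped reads to a modified mm10 reference. The deposited values are whole-number UMI counts for each gene and barcode, with no scaling, from before the cell filter. The submitters' processing notes name Cell Ranger 3.0.2 and Seurat 2, and no column of the tables was left without a library (0 columns). Comparisons used the 26600 genes in all 4 tables. Counts were summed per population and library and divided by the summed total (CPM). With 1 library per age no test was made. A gene was called when its CPM differed at least 2-fold in 1 direction in all 4 libraries, where every population compared had at least 35 cells, after entering counts under 3 UMIs as 3. Thinning drew 3000 UMIs per cell, and shallower cells were left out. Of neutrophils and Adipoq cells at most 400 per library were thinned.

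Doublets were scored with Scrublet (in scanpy 1.11.5, anndata 0.12.19, 30 components, expected share 8%) and not removed. Its own threshold called 4.21%, 1.78%, 1.36% and 0.147% of cells, which failed at 16 months, so the alternative left out the highest-scoring 8% in each library. Named genes were those of the rule and markers, genes of the lists described, the 10 called genes per population and direction with the largest smallest ratio over libraries, and 8 per direction for 16 months, leaving out numbered gene models and mt-, Rpl, Rps and Hist genes. The cells, lists and rules were chosen with earlier results of these data known. Python 3.11.15, numpy 2.4.6, pandas 2.3.3, scipy 1.17.1 and matplotlib 3.10.9 were used. Promoters came from RefSeq (GRCm38.p6) and gene positions from GENCODE M21.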

Additional observations from a re-analysis of the deposited data

How the results depend on the processing

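With 1 library per age, no replicate supports any value, and alternatives show only what the processing moved. No paired analysis was possible because the result comes from no test and each age has 1 library. Shares moved most with depth, to 0.217%, 0.293%, 0.465% and 0.427% with cells thinned to 3000 UMIs. A limit of 50 on Bglap plus Bglap2 gave 1.265% at 1.5 months and 1.64% at 16 months, and a mitochondrial limit of 10% gave 3.84% at 16 months. Counts of genes higher and lower at 3-fold were 17 and 64 against Spp1+ cells without Cdh15 and Cadm1, 43 and 9 against osteoblasts, 9 and 21 against osteocytes, and 79 and 55 at 16 months. At a minimum of 20 CPM they were 260 and 46 against osteoblasts, 504 and 316 at 16 months, and 92 genes were higher than in osteocytes. Ratios centred on their median gave 72 and 59 against osteoblasts and 28 higher than in osteocytes. These moves follow from a stricter fold, from more genes tested, and from the shift of the median. Leaving out cells with RNA of other lineages, and each library in turn, was added after the data were seen. Without the 16 month library 200 genes were lower than in Spp1+ cells without Cdh15 and Cadm1, and 120 were higher and 124 lower than in osteocytes. Without the 1 month library 219 were higher and 46 lower than in osteoblasts and 79 higher than in osteocytes, and without the 3 month library 478 and 301 were called at 16 months (the cause was not tested beyond fewer libraries having to agree). Of 732 values of named genes under alternatives, 726 stayed on their side of the limit, 6 lost the call, none reversed, and 12 more fell under the level minimum.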

Other observations

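Other adhesion genes of the selected cells were described by no comparison above. Cdh2 (N-cadherin) stood at 204, 229, 211 and 289.7 CPM in the selected cells and at 139, 173, 165 and 253 CPM in mature osteoblasts, with 8.60 to 44.2 CPM in neutrophils. Ncam1, a neural adhesion molecule also made by osteoblasts, stood at 124, 161, 249 and 457 CPM against 53.9, 82.7, 109.6 and 163 CPM, higher in 4 of 4 libraries by a factor that was not called at 2-fold in every one. Cdh11, the cadherin named for osteoblasts, stood at 152, 197, 284 and 594 CPM, and Adipoq cells had more of it in each library (401, 420.3, 405 and 998 CPM). Postn, periostin of collagen-rich tissue, stood at 301, 542, 539 and 762 CPM, against 354, 996, 599.7 and 216 CPM in osteoblasts, so its direction at 16 months was opposite to that of the other libraries. The inhibitor of metalloproteinases Timp1 stood at 1386, 1466, 1185 and 1038 CPM against 862, 519, 414 and 277 CPM in osteoblasts, higher in 4 of 4 libraries and not called because the ratio at 1 month was under 2-fold.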
